A study of Mus musculus with 4 samples.

Results

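The cells described here are synovial fibroblasts that were chosen by their own counts of Gdf10 and Myoc transcripts, 210 cells of 10136 in the synovium and of 29563 in the whole series. Synovium is the connective tissue that lines the joint cavity, and fibroblasts are the cells that make its matrix. A cell was chosen when it held at least 20 UMIs of the matrix genes Col1a1, Col1a2, Col3a1 and Dcn together, no UMI of the leukocyte gene Ptprc or the endothelial gene Cdh5, fewer than 5 UMIs of Mmp13 and Ibsp, fewer than 3 of Pi16 and Dpp4, fewer than 5 of Cxcl14 and Smoc2, and at least 3 of Gdf10 and Myoc. A UMI (unique molecular identifier) marks 1 captured transcript. Only barcodes with at least 500 UMIs, of which at most 20% were of mitochondrially encoded genes, entered. Because these counts chose the cells, every level of these genes below is a description.

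The TNF+ mice carried a human TNF transgene (hTNFtg, the TNF-Tg line), and the TNF- mice were littermates without it. All were 4-month-old female mice on the C57BL/6 background. Synovium was pooled from 5 to 10 mice per genotype, digested with type II collagenase and captured for droplet-based 3′ sequencing, which gave 1 library of each genotype. With 1 library per group there is no replicate, so no test was made, and all intervals are 95% intervals that cover counting error only. The matrices list mouse genes, so the human transgene itself was not measured.

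Gdf10 (also named BMP3b) is a secreted ligand of the TGF-β family, whose members signal through paired serine/threonine kinase receptors to SMAD transcription factors and shape bone, cartilage and connective tissue. Myoc encodes myocilin, a secreted glycoprotein best known from the trabecular meshwork of the eye. Of the other marker genes set for these cells, Mgp encodes matrix Gla protein, an inhibitor of soft tissue calcification, Penk the precursor of the enkephalin opioid peptides, Meox1 a homeobox transcription factor of the somites and Fbln1 fibulin-1, a protein of elastic fibres and basement membranes.

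Gdf10 lies at chr14:33923587-33937983 and Myoc at chr1:162639155-162649693 of GRCm38. The other markers are Mgp (chr6:136872435-136875823), Penk (chr4:4133531-4138819), Meox1 (chr11:101877510-101894374) and Fbln1 (chr15:85205949-85286535). The promoters of the 2 genes that give the cells their name are shown because the rule rests on them. Each is 300 bases of RefSeq sequence on GRCm38.p6, from 250 bases before to 50 after the start, at chr14:33923337-33923636 for Gdf10 and chr1:162638900-162639199 for Myoc, both on the plus strand. Capitals mark a match to TATAAA, the core of the TATA box, which stood in 13.6% of 32851 RefSeq promoters of this length on either strand.
Gdf10: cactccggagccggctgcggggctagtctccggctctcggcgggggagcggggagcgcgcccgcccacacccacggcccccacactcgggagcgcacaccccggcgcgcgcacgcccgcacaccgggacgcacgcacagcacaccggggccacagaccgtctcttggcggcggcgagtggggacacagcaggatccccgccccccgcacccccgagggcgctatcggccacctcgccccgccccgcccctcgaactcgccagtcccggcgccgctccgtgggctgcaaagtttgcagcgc
Myoc: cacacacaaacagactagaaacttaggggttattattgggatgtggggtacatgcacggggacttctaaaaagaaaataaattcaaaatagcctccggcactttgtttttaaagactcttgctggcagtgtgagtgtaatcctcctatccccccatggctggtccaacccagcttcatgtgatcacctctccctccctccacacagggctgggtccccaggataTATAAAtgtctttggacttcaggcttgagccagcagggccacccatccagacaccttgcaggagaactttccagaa
Myoc held 1 such match and Gdf10 none.

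There were 181 chosen cells among 6638 kept TNF- barcodes and 29 among 3498 kept TNF+ barcodes. They made up 2.73% (2.35 to 3.15) and 0.829% (0.556 to 1.19) of the kept cells, and the shares differed by -1.90 points (-2.39 to -1.39). A Ptprc UMI was found in 17.4% and 39.9% of kept barcodes, and the part of this shift in the share of all cells was not tested. The fibroblast gate, meaning the cells with the matrix genes and without Ptprc and Cdh5, held 3515 TNF- and 581 TNF+ cells. Within that gate the shares were 5.15% (4.44 to 5.93) and 4.99% (3.37 to 7.09), which differ by -0.16 points (-1.84 to 2.04). The larger parts of the gate moved apart between the libraries. Each cell was counted in 1 part only, in a fixed order, and the shares depend on that order. Cells with at least 5 UMIs of Mmp13 and Ibsp came first and were 0 in TNF- and 182 in TNF+. Of the others, cells with at least 3 UMIs of Pi16 and Dpp4, which mark adventitial fibroblasts, were 37.7% and 9.47% of the gate. Cells outside both of these parts with at least 5 of Cxcl14 and Smoc2 were 52.4% and 31.5% of the gate. These 3 groups are called classes below, and the cells of the gate outside all of them and outside the chosen cells, the rest, were 166 and 132.

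The rule counts raw UMIs, so a shallow cell passes its upper limits more easily. The chosen cells held a median of 10960 UMIs in TNF- (1834 to 27183) and 8460 in TNF+ (1848 to 19001). In the Cxcl14 Smoc2 class the medians were 15060.5 and 10335, and in the Pi16 Dpp4 class 18259.5 and 16222. When every cell was thinned to 5000 UMIs before the whole rule was applied, it took 13.2% of the TNF- gate (454 of 3447 cells) and 7.34% of the TNF+ gate (39 of 531). Of the chosen cells deep enough to be thinned, 132 of 162 in TNF- and 13 of 25 in TNF+ were taken by both. The number of cells under this name is therefore a property of the rule and the depth together.

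Gdf10 and Myoc did not set these cells apart from the other fibroblasts of the TNF- synovium. At least 3 UMIs of the pair were found in 2733 of 3515 TNF- cells of the gate (77.8%, 76.3 to 79.1) and in 138 of 581 TNF+ cells (23.8%, 20.3 to 27.4), which is -54.0 points apart (-57.5 to -50.1). Of the 2733, 1033 were turned away for Pi16 and Dpp4, and 1519 of the others for Cxcl14 and Smoc2. The pair reached 3 UMIs in 77.9% of the TNF- Pi16 Dpp4 class and 82.5% of the Cxcl14 Smoc2 class, against 43.6% and 46.4% in TNF+. The cells are for this reason called by their rule, and no cell type name is given to them.

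Of the pair, Myoc carried the choice. In TNF-, 137 of the 181 cells had Myoc UMIs only, 36 had both and 8 had Gdf10 only. In TNF+ the numbers were 22, 2 and 5 of 29. Just inside the limit, with exactly 3 UMIs of the pair, stood 18 TNF- and 6 TNF+ cells, and just outside it, with 2, stood 25 and 9. Levels are given as counts per 1e6 UMIs of the summed cells (CPM). Gdf10 stood at 87.9 CPM (75.6 to 102) in the TNF- chosen cells and at 83.7 (53.0 to 126) in the TNF+ ones. Myoc stood at 1937 (1877 to 1997) and 1070 (951 to 1199).

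Myoc UMIs were also found in cells of other types, mostly in the TNF- library. T cells, which should lack this gene, held a Myoc UMI in 21 of 110 cells (19.1%, 91.3 CPM) in TNF- and in 0 of 68 in TNF+, which allows up to 4.41% of cells. Their median depth was 11494.5 and 6840.5 UMIs. In endothelial cells 35.0% had a Myoc UMI in TNF- and 2.33% in TNF+. The minimum of 3 UMIs of Gdf10 and Myoc was reached by 25.4% and 1.08% of the endothelial cells, and by 2.73% and 0 of the T cells. Among the chosen cells 95.6% had a Myoc UMI in TNF- and 82.8% in TNF+. Thinned to 3000 UMIs, the shares were 86.8% and 74.1%, against 9.09% and 0 in the T cells. The T cells held 163 Myoc and 48 Mgp UMIs in TNF-, and 0 and 3 in TNF+. Free RNA in the droplets and doublets (barcodes that hold more than 1 cell) cannot be told apart by these values. Their part in the choice of cells near the limit was not tested. Gdf10 had 1 UMI in the 110 T cells and 0 in the 68.

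The other 4 markers were not used by the rule, but they come from the same cells. In the TNF- library Mgp stood at 3305 CPM in the chosen cells, 2359 in the Cxcl14 Smoc2 class and 1005 in the Pi16 Dpp4 class. Fbln1 stood at 389 CPM, 158 and 147 in the same order, and Meox1 at 85.5, 68.7 and 24.8. Penk stood at 80.7 CPM, below the 97.96 of the Cxcl14 Smoc2 class and above the 42.9 of the Pi16 Dpp4 class. In the TNF+ library Meox1 stood at 36.4 CPM (17.5 to 66.9), 32.9 and 13.3, and Penk at 98.2 (64.7 to 143), 116 and 78.7. Both genes thus had the order of the TNF- library, with intervals that overlap. Mgp stood there at 2114 CPM, 2816 and 1805, and Fbln1 at 255, 154 and 265, so the chosen cells were no longer above both classes for these 2 genes. The rest of the TNF- gate, with Myoc at 53.3 CPM, had 3916 CPM of Mgp and 383 of Fbln1.

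**Figure D1:**
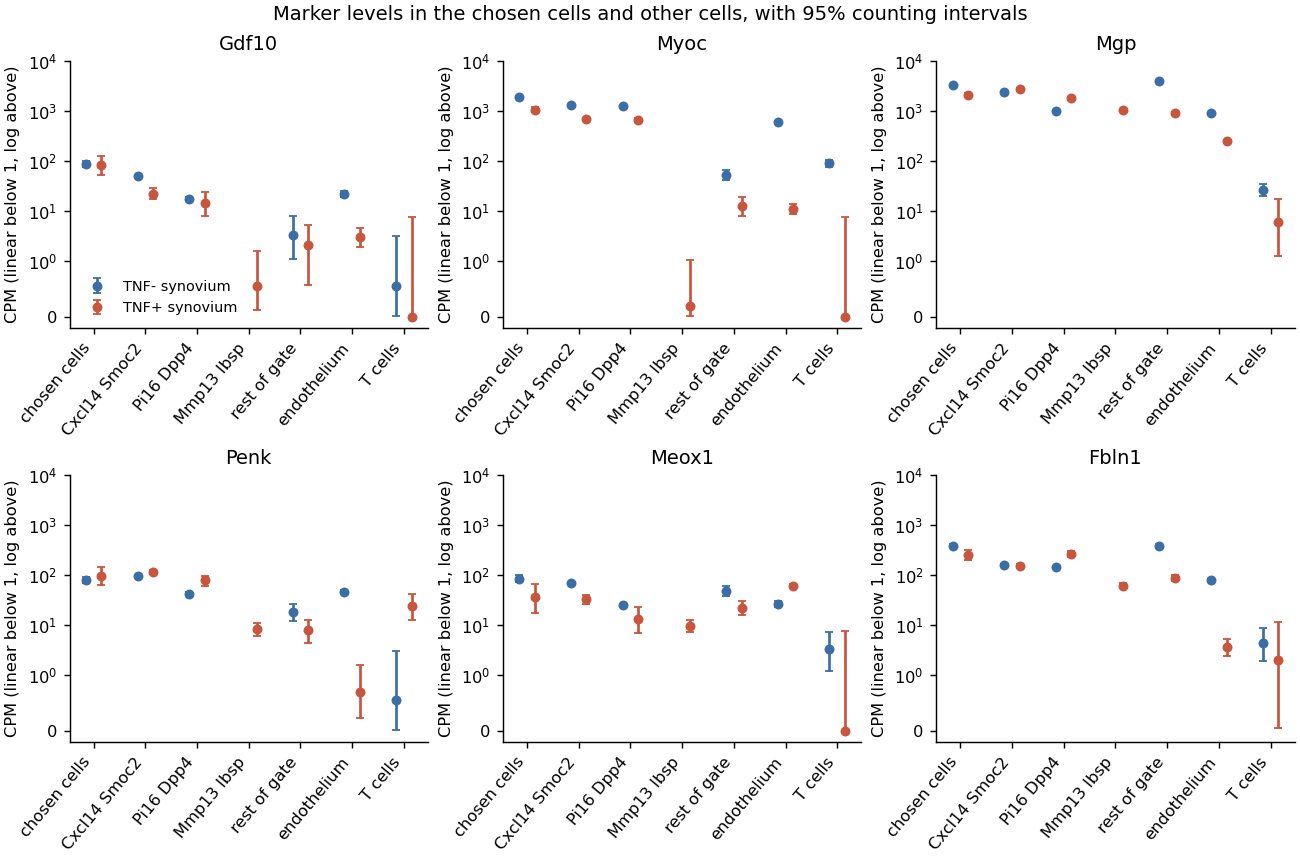
Levels of the 6 marker genes (CPM of the summed cells, log axis that turns linear below 1) in the chosen cells, the other cells of the fibroblast gate, endothelial cells and T cells, with the TNF- library in blue and the TNF+ library in red and bars for 95% counting intervals. Myoc is lower in TNF+ in the chosen cells and in both large classes, and it stands at 0.186 CPM in the Mmp13 Ibsp class.

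Between the genotypes, Myoc was lower in TNF+ in the chosen cells and in both large classes. Its log2 ratio, taken as TNF+ over TNF- throughout, was -0.86 (-1.03 to -0.69) in the chosen cells, -0.94 in the Cxcl14 Smoc2 class and -0.95 (-1.06 to -0.83) in the Pi16 Dpp4 class, although the chosen cells had to hold the pair. In endothelial cells it was -5.79 (-6.13 to -5.46). The other markers had -6.05 (Penk), -4.45 (Fbln1), -2.82 (Gdf10), -1.85 (Mgp) and 1.20 (Meox1) there. The part of fibroblast RNA in these endothelial values was not tested. Gdf10 had a log2 ratio of -0.07 (-0.76 to 0.56) in the chosen cells and -1.18 (-1.55 to -0.83) in the Cxcl14 Smoc2 class. Mgp went different ways: its log2 ratio was -0.64 (-0.77 to -0.52) in the chosen cells, 0.26 (0.22 to 0.29) in the Cxcl14 Smoc2 class and 0.84 (0.77 to 0.91) in the Pi16 Dpp4 class. Fbln1 had -0.61 (-0.98 to -0.26), -0.03 (-0.17 to 0.11) and 0.85 (0.66 to 1.03) in the same order. The rest of the gate was also lower in both genes, at -2.13 (-2.21 to -2.05) for Mgp and -2.12 (-2.38 to -1.87) for Fbln1. Meox1 was lower in the chosen cells and both large classes, at -1.23 (-2.32 to -0.32), -1.06 and -0.90. Penk had 0.28 (-0.36 to 0.88) in the chosen cells.

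The chosen cells differed widely among themselves in genes of tendon. Tenomodulin (Tnmd), scleraxis (Scx), Mkx, Thbs4 and fibromodulin (Fmod) are genes of tendon and ligament cells. With 5 or more UMIs of these 5 genes stood 83 of the 181 TNF- cells and 14 of the 29 TNF+ cells, while 78 and 13 had none. From 1 to 19 such UMIs were held by 30 TNF- and 2 TNF+ cells, and over 50 by 66 and 13, up to 812 and 514. This division was made after the values were seen, and its limit of 5 is a choice.

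**Figure D2:**
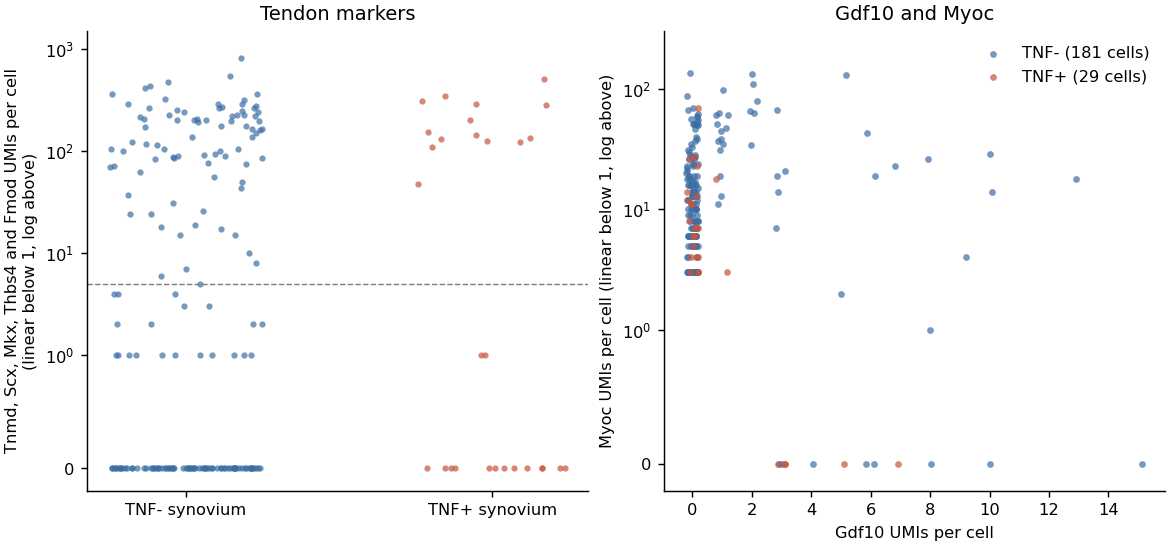
Left, UMIs of Tnmd, Scx, Mkx, Thbs4 and Fmod together in each chosen cell of the 2 libraries, with the limit of 5 dashed (log axis, linear below 1). Right, Myoc against Gdf10 UMIs per chosen cell, TNF- in blue and TNF+ in red. Of the TNF- cells 78 lie at 0 tendon-marker UMIs and 66 above 50, and 137 of 181 hold Myoc without Gdf10.

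Gdf10 belonged almost wholly to the cells without tendon markers. They held 174 of its 183 UMIs in TNF-, in 42 of 44 cells, and all 23 in TNF+. Its level was 145 CPM in them and 10.2 in the cells with tendon markers in TNF-. Penk followed Gdf10, with 123 CPM against 22.8 in TNF- and 173 against 44.0 in TNF+. Mgp and Fbln1 leaned the other way. Mgp stood at 2381 CPM without and 4572 with tendon markers in TNF-, and at 1468 and 2583 in TNF+. Fbln1 stood at 329 and 471 CPM in TNF-, and at 155 and 327 in TNF+. The markers were therefore not highest in the same cells.

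Other genes divided along the same line in both libraries, as a description of that split. Beside the tendon markers themselves, the cells that carried them were higher in Chad (chondroadherin, a matrix protein that binds collagen), Kera (keratocan, a small proteoglycan), Tnc (tenascin C), Comp (cartilage oligomeric matrix protein), the collagen crosslinker Lox, the Wnt inhibitor Wif1, Cilp2 and Angptl7. Chad stood at 800.1 CPM with and 1.66 without tendon markers in TNF-, and Comp at 1188 and 152. In TNF+, Comp stood at 1980 and 43.2 CPM. The cells without tendon markers were higher in the eosinophil chemokine Ccl11, the activin-binding protein Fst (follistatin), the IL-1 receptor Il1r1, stem cell factor Kitl, Postn, Inmt, Dpep1, Osr1, Zeb2 and the interferon-inducible Ifi204 and Ifi205. Ccl11 stood at 195 CPM without and 7.97 with tendon markers in TNF-, and at 432 and 0 in TNF+. Fst stood at 543 and 52.4 CPM in TNF-, and at 328 and 6.29 in TNF+.

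The neighbourhood of each cell, computed with the genes of the rule left out, shows how far the cells belong together. Among the 20 nearest neighbours of a chosen cell, 19.1% were chosen cells in TNF- (5.15% of the gate) and 12.8% in TNF+ (4.99%). The Cxcl14 Smoc2 class supplied 40.4% and 46.9% of the neighbours. The cells of the rest, which hold fewer than 3 UMIs of the pair, had 20.3% chosen cells around them in TNF- and 6.67% in TNF+. The tendon markers, unlike the genes of the rule, were not left out of this computation. Of the neighbours of chosen cells with tendon markers, 92.7% carried them in TNF- (13.3% of the gate) and 97.1% in TNF+ (43.0%). Around the other chosen cells the shares were 4.90% and 10.0%.

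In clusters of the same data, the chosen cells were spread likewise. In TNF-, 71 chosen cells (39.2%) fell in a cluster of 292 cells led by Chad, Fmod, Cilp2 and Kera, all 71 with tendon markers, beside 120 cells of the rest. Another 63 (34.8%) fell in a cluster of 598 cells led by Hmcn1, Fmo2, Clu and Klf5, and 25 in one of 460 cells led by C4b and Mmp3. In TNF+, 12 (41.4%) fell in a cluster of 62 cells led by Angptl7, Chad and Kera, and 11 (37.9%) in one of 129 cells led by Inmt, Ccl11 and Abca8a. No cluster in either library consisted mainly of chosen cells.

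Against the other fibroblasts of the gate, several of the genes with the largest excess also led the cells with tendon markers, such as S100a5, Cilp2, Wif1 and Chad. The 12 genes highest by the lower interval bound of both libraries were S100a5, Itga6, Cilp2, Wif1, Chad, Fgf9, Angptl7, P3h2, Fmod, Tnmd, Egfl6 and Ccdc3. Fmod stood at 2932 CPM in the chosen cells and 353 in the others in TNF-, and at 5363 and 1078 in TNF+. S100a5, a calcium-binding protein, stood at 66.3 and 4.06 CPM in TNF-, and at 324 and 10.6 in TNF+. It was found in 23 of the TNF- and 4 of the TNF+ chosen cells. The rest of the gate held these genes too, with 4933 CPM of Fmod and 734 of Chad in TNF-, above the chosen cells.

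The 6 genes lowest against the other fibroblasts were the monocyte chemokine Ccl2, the collagen gene Col5a3, Enpp2 (autotaxin, which makes lysophosphatidic acid), Gpm6b, Creb5 and Tnfaip2. Ccl2 stood at 33.6 CPM in the TNF- chosen cells and 173 in the others, and at 327 and 2375 in TNF+. Col5a3 stood at 179 and 546 CPM in TNF-, and at 36.4 and 683 in TNF+. The rest of the TNF- gate held 142 CPM of Col5a3 and 25.6 of Tnfaip2, below the chosen cells, and 109 of Ccl2, above them. In TNF+ the rest held 967, 203 and 1791 CPM in the same order, above the chosen cells. The chosen cells were picked on their own UMIs, and all of these values describe that choice.

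The comparison of TNF+ with TNF- chosen cells asks how cells picked by 1 rule differed between a joint with and without the transgene. A gene was compared when at least 5 UMIs would be expected in each library if the levels were equal, which 6175 genes met. The TNF+ side rests on 29 cells and 274853 UMIs, the TNF- side on 2082357. Cells with tendon markers supplied 57.9% of these UMIs in TNF+ and 42.2% in TNF-, so the ratio of a gene found mostly in 1 of the 2 kinds of cell also carries this change of mix. The median log2 ratio over all genes was -0.08. The level in TNF+ was at least 2-fold higher for 304 genes (4.92%) and at least 2-fold lower for 700 (11.3%). With each gene's richest cell left out in each library, 121 of the 304 and 646 of the 700 remained past 2-fold. A gene held by a single TNF+ cell can thus be called higher. Of the genes in the lists below, 20 of 42 higher and 45 of 48 lower ones remained past 2-fold in this check, in which the library totals stayed as they were. Because 1 cell is a larger part of 29 TNF+ than of 181 TNF- cells, the check lowers the ratios as a whole, to a median of -0.37. It is therefore a weaker check of the lower genes than of the higher ones.

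Among all genes ranked by the interval bound nearest 0, the highest included Hmox1, Ccl2, Hbegf and Thbs1, found in 7 or more TNF+ cells without 1 cell holding most UMIs. Hmox1 encodes heme oxygenase 1, an enzyme of heme breakdown that oxidative stress raises. It stood at 42.7 CPM (34.3 to 52.6) in TNF- and 597 (509 to 695) in TNF+, with UMIs in 39 of 181 and 16 of 29 cells, a log2 ratio of 3.80 (3.42 to 4.19) and of 3.17 without the richest cell. Ccl2 went from 33.6 CPM to 327, a log2 ratio of 3.28 (2.82 to 3.76) carried by 7 TNF+ cells, and of 3.06 without the richest. Hbegf, a ligand of the EGF receptor, went from 101 CPM to 808, a log2 ratio of 3.00 (2.72 to 3.28) in 20 TNF+ cells, and 2.77 without the richest. Thbs1 (thrombospondin 1, an activator of latent TGF-β) went from 298 CPM to 1412, a log2 ratio of 2.25 (2.06 to 2.43), and 1.83 without the richest.

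These 4 genes were also higher in the larger classes. Hmox1 had a log2 ratio of 3.56 in the Cxcl14 Smoc2 class and 3.97 in the Pi16 Dpp4 class. Ccl2 had 4.18 and 3.01, Hbegf 2.79 and 3.32, and Thbs1 0.73 and 1.65. Within the chosen cells, Ccl2 had a log2 ratio of 4.33 with tendon markers and 2.46 without them, and Hmox1 3.58 and 4.08.

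The other genes highest in that ranking had most of their TNF+ UMIs in 1 cell. The contractile genes Myh11, Tagln, Acta2 and Myl9 had 63 of 64, 73 of 78, 68 of 71 and 39 of 46 TNF+ UMIs in the cell richest in each. Without that cell their log2 ratios were -0.40, 1.92, 1.51 and 1.34. In the Cxcl14 Smoc2 class they were -2.17, 4.35, 4.89 and -0.34 in the same order. In the Pi16 Dpp4 class they were -0.95 (a bound, with 0 TNF+ UMIs), 0.25, 1.65 and -1.11. Top3a had 31 UMIs in 1 cell, and Terf2ip 27 of 29 in 1 cell. Bmp2, a bone morphogenetic protein, went from 51.4 CPM to 349, a log2 ratio of 2.76 (2.35 to 3.18), with 69 of its 96 TNF+ UMIs in 1 cell and a log2 ratio of 1.14 without it.

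Markers of other cell types moved with these genes. The 5 mural cell markers (Rgs5, Acta2, Myh11, Notch3 and Kcnj8), all detected on both sides, summed to 48.0 CPM in TNF- and 582 in TNF+, where 153 of their 160 UMIs lay in 1 cell. The 5 muscle markers summed to 173 CPM in TNF-, where 262 of 361 UMIs lay in 1 cell, and to 3.64 in TNF+, where Acta1, Pax7, Myf5 and Des were at 0. The 3 TNF- cells that ranked first for mural, Schwann and muscle markers were 3 different cells, as were the 3 TNF+ ones. Without them, 282 genes were higher and 739 lower of 5783 compared. Macrophage markers summed to 24.97 and 87.3 CPM, endothelial markers to 67.2 and 61.9, and T and NK cell markers to 0.480 and 0, and their part in the results was not tested.

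On the lower side, Map3k5, Eda, Tppp3, Creb5, Hmcn1 and Ppp2r2b were found in 34 to 105 TNF- cells. Tppp3, a tubulin-binding protein known from tendon sheath and synovial progenitor cells, went from 293 CPM (271 to 318) in 98 of 181 cells to 47.3 (25.2 to 80.9) in 8 of 29, a log2 ratio of -2.63 (-3.55 to -1.85). Eda (ectodysplasin, a ligand of the TNF superfamily) went from 195 CPM to 21.8, a log2 ratio of -3.16 (-4.61 to -2.02), and Creb5, a transcription factor, from 181 to 32.7, a log2 ratio of -2.46 (-3.60 to -1.52). Map3k5, the stress kinase ASK1, had 341 UMIs in 105 TNF- cells and 1 UMI in TNF+, a log2 ratio of -5.49 (-10.80 to -3.00). Ppp2r2b had 116 UMIs in TNF- and 0 in TNF+, where the limit of 3 UMIs puts its log2 ratio at -2.35 or below.

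The lower genes were lower elsewhere as well, with 1 exception. Tppp3 had a log2 ratio of -1.59 in the Cxcl14 Smoc2 class and -1.58 in the Pi16 Dpp4 class, and Eda had -2.26 and -2.46. Hmcn1 (hemicentin 1, a matrix protein) had a log2 ratio of -3.59 (-6.64 to -1.71) in the chosen cells, from 182 UMIs in 60 cells to 2 UMIs, but 1.67 in the Cxcl14 Smoc2 class and 2.24 in the Pi16 Dpp4 class. The chosen cells with tendon markers held 23 of its UMIs in TNF- and 0 in TNF+, and those without had a log2 ratio of -2.93 on 2 TNF+ UMIs. The other named lower genes, Acta1, Tnnc2, Tnnt3, Mylpf, Tnni2 and Myl1, are genes of skeletal muscle fibres, and the richest TNF- cell held most of the UMIs of each, such as 183 of 239 for Acta1 and 189 of 215 for Mylpf.

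**Figure D3:**
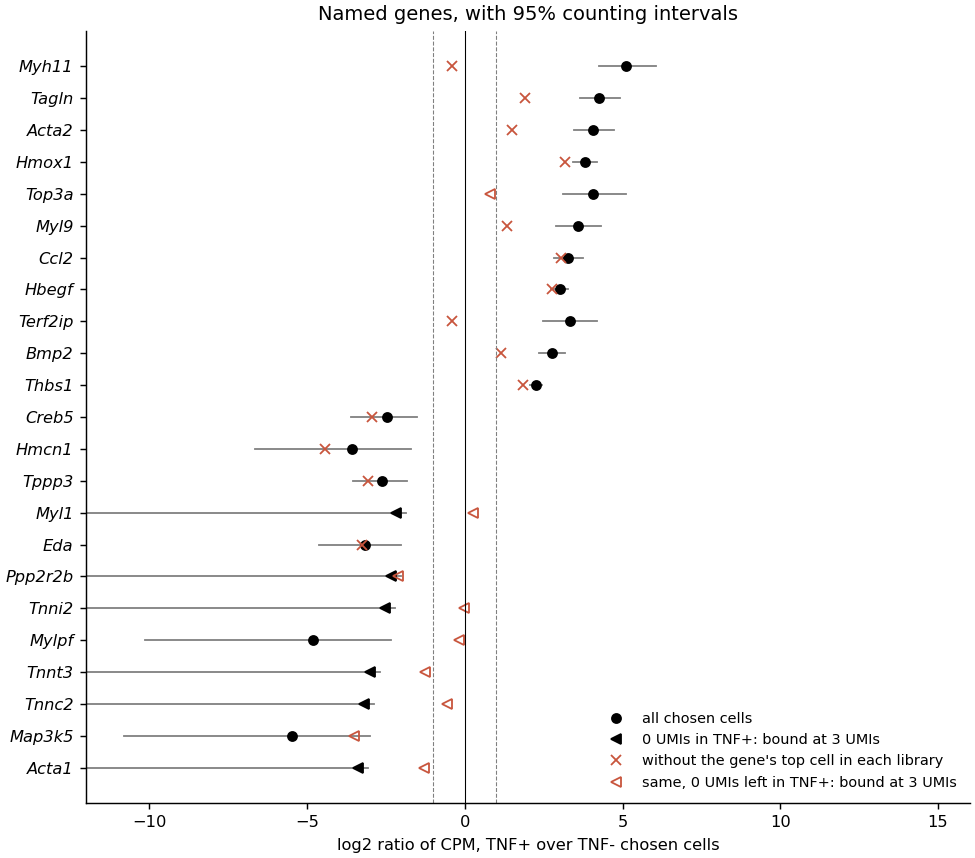
Log2 ratio of TNF+ over TNF- chosen cells for the genes ranked first over all genes, with 95% counting intervals as lines, the ratio without each gene's richest cell in red, and triangles for bounds at 3 UMIs where TNF+ has 0. Hmox1, Ccl2, Hbegf, Thbs1, Tagln, Acta2, Myl9, Bmp2, Creb5, Hmcn1, Tppp3 and Eda stay past 2-fold without that cell. Map3k5 is left with 0 TNF+ UMIs and a bound of -3.53. The contractile genes move towards 0, Myh11 to -0.40, and the muscle genes are left with bounds nearer 0.

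Gdf10 is a TGF-β family ligand, so the genes of that family were described next. Of 20 ligands, 9 were abundant enough to compare, 3 past 2-fold higher and 1 lower. Over all genes 4.92% were higher and 11.3% lower, so 0 or 1 gene past 2-fold in a list of this length, here and below, is near the background. Bmp2 was the highest, with a log2 ratio of 0.74 (0.60 to 0.88) in the Cxcl14 Smoc2 class and -1.23 in the Pi16 Dpp4 class. Bmp4 went from 46.1 CPM to 94.6 (1.04, 0.35 to 1.67), with 0.63 without its richest cell and -1.32 and -0.60 in the Cxcl14 Smoc2 and Pi16 Dpp4 classes. Inhba had 15 of its 22 TNF+ UMIs in 1 cell and a log2 ratio of -0.20 without it. Tgfb2 went from 213 CPM to 106, a log2 ratio of -1.01 (-1.61 to -0.47), but was higher in the Cxcl14 Smoc2 class, at 1.21. Of 12 receptors, 10 were compared, with a median of -0.14, Bmpr1b higher (1.11, 0.76 without its richest cell and 0.66 within the cells with tendon markers) and Acvr2a (-1.29) and Acvr1 (-1.17) lower. Tgfbr3 and Bmpr2, the most abundant, were at -0.07 (-0.37 to 0.21) and -0.11 (-0.47 to 0.23).

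BMP antagonists bind the ligands outside the cell. Of 14, 8 were compared, with Crim1 (1.14, 0.69 to 1.57, and 0.81 without its richest cell) among those past 2-fold higher and Bmper (-2.24, -3.57 to -1.17) and Fst (-1.24, -1.75 to -0.78) lower. Fst went from 336 CPM to 142. Of 14 target genes of the pathway, 12 were compared, with Ccn2 (299 to 757 CPM, log2 ratio 1.34, and 0.99 without its richest cell) among those past 2-fold higher and none lower. Id3, a BMP target, was at -0.34 (-0.52 to -0.16).

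Wnt antagonists were the list with the highest median, 1.14 over 6 genes of 12. Sfrp2 went from 131 CPM to 615 (2.23, 1.94 to 2.51), Wif1 from 108 to 448 (2.05, 1.72 to 2.37) and Sfrp4 from 113 to 295 (1.38), while Dkk2 was lower (-1.14, -1.70 to -0.62). Sfrp2 had 87 of its 169 TNF+ UMIs in 1 cell and a log2 ratio of 1.41 without it. Sfrp4 had 73 of its 81 TNF+ UMIs in 1 cell and a log2 ratio of -1.70 without it. All UMIs of Wif1, 225 in TNF- and 123 in TNF+, lay in cells with tendon markers, and within these its log2 ratio was 1.59. The median of the list was 0.13 without each gene's richest cell. Of the 22 Wnt ligands and receptors, 12 were compared, with Fzd5 (1.51) and Fzd1 (1.24, 0.89 without its richest cell) higher and Lrp5 (-1.11) and Fzd4 lower.

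Genes that answer TNF through NF-kB had a share of members past 2-fold near that of all genes. Of 17 feedback and response genes, 14 were compared, with a median of -0.52. Sod2 was past 2-fold higher (79.2 to 189 CPM, 1.26, 0.78 to 1.71) and Tnfaip3 lower (-1.14, -3.46 to 0.49), on 3 TNF+ UMIs and with 1.75 in the Cxcl14 Smoc2 class, which is 7.14% in each direction beside 4.92% and 11.3% of all genes. The inhibitor Nfkbia was at 0.64 (0.42 to 0.85), Nfkb1 at -0.37 and Icam1 at -0.08. The median of the same genes was 0.37 in the Cxcl14 Smoc2 class and 0.41 in the Pi16 Dpp4 class. Of 18 chemokines, 8 were compared, with Ccl2 and Ccl7 (51.4 to 160 CPM, 1.64) higher and Cxcl13 at 52 UMIs and 0. The 7 compared of 19 cytokines and growth factors had none past 2-fold, with Il6 at 0.93 (0.39 to 1.44) and Csf1 at 0.93. Of the 54 TNF+ UMIs of Csf1, 27 lay in 1 cell. Il6 went from 99.7 CPM to 328 in the chosen cells without tendon markers. In those with them it went the other way, from 44.4 CPM to 12.6, on 39 UMIs and 2.

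Complement C3, the central protein of the complement cascade, went from 960 CPM (919 to 1003) in 120 of 181 cells to 2809 (2614 to 3014) in 21 of 29, a log2 ratio of 1.55 (1.43 to 1.67). It had 1.77 in the Cxcl14 Smoc2 class and 1.60 in the Pi16 Dpp4 class, and 2.59 and 1.07 in the chosen cells with and without tendon markers. Of 20 complement genes, 10 were compared. C4b was the 1 past 2-fold lower, from 127 CPM to 54.6 (-1.22, -2.07 to -0.47), while in the Pi16 Dpp4 class it had 2.46. Serping1, the C1 inhibitor, was at 0.14 (-0.05 to 0.33).

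Immediate-early genes are transcribed early after a stimulus and encode short-lived regulators. They made up the list with the lowest median among those with 5 or more genes compared, -0.64 over 18 of 19. Of the 18, 7 (38.9%) were past 2-fold lower and none higher, with 11.3% of all genes lower. Fos went from 3832 CPM (3749 to 3917) to 1463 (1323 to 1613), a log2 ratio of -1.39 (-1.54 to -1.24). Egr1 went from 2595 CPM to 1124 (-1.21), Jun from 2253 to 1121 (-1.01), Zfp36, which degrades the mRNA of TNF itself, from 1291 to 546 (-1.24) and Klf2 from 800.1 to 342 (-1.23). Egr2 (-1.24) and Ier2 (-1.02) were the other 2. The same list had medians of -0.66 in the Cxcl14 Smoc2 class and -0.54 in the Pi16 Dpp4 class, and Fos had -2.30 and -2.48, so these genes were lower in both large classes as well.

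**Figure D4:**
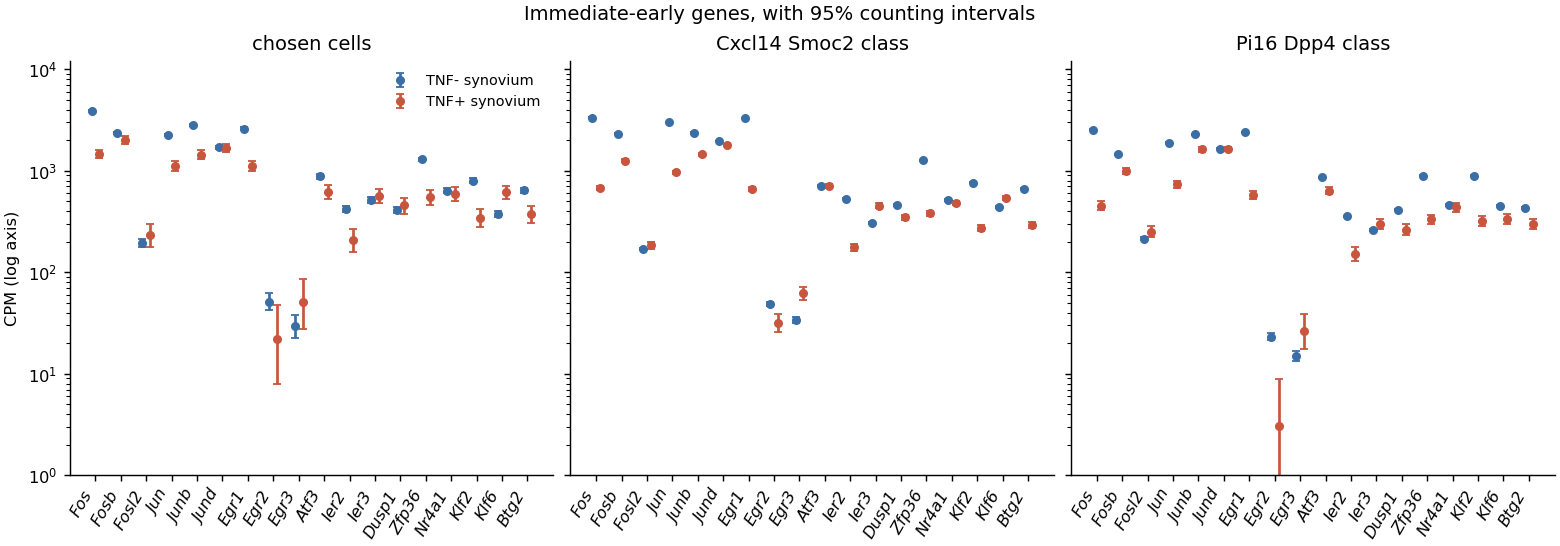
Levels of the 18 immediate-early genes (CPM, log axis) in the chosen cells and the 2 large classes, TNF- in blue and TNF+ in red, with 95% counting intervals. Fos, Jun, Egr1, Ier2, Zfp36 and Klf2 lie lower in TNF+ in all 3 panels.

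The promoters of Fos and Zfp36 are shown because these genes carry that difference. The windows are chr12:85473640-85473939 on the plus strand for Fos and chr7:28379179-28379478 on the minus strand for Zfp36, both of 300 bases. Capitals mark matches to the CArG box, bound by serum response factor, to TATAAA, or to TGACG, the core of the cyclic AMP response element, on either strand. A TATAAA match can lie within a CArG box.
Fos: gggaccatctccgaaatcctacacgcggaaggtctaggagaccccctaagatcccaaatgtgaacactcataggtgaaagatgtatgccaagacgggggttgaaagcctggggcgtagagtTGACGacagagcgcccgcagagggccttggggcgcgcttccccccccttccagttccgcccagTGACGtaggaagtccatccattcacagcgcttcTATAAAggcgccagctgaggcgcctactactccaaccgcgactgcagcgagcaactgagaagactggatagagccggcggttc
Zfp36: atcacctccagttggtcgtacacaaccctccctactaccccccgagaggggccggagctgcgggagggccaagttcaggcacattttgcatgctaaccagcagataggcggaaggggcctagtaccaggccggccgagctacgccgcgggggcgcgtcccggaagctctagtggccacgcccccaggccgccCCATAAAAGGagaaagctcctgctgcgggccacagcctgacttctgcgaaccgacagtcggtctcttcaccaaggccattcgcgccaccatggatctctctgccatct
Fos held 1 TATAAA and 2 TGACG matches, and Zfp36 held 1 CArG box. Of the 15 immediate-early genes with a promoter in the table, 2 held a CArG box (Egr2 and Zfp36), 2 TATAAA and 9 TGACG, against 1.81%, 15.7% and 23.05% of 27025 genes. A match describes the letters of the window and no more.

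Matrix genes make up much of what a fibroblast transcribes. Of 12 small leucine-rich proteoglycans, 11 were compared, none past 2-fold higher, with Lum (lumican) from 601 CPM to 255 (-1.24, -1.61 to -0.89) and Aspn (asporin) from 393 to 142 (-1.47, -1.97 to -1.01) lower. Aspn was higher in the Cxcl14 Smoc2 class, at 2.66. Of 20 genes of elastic fibres, 19 were compared, with Lox higher (230 to 680 CPM, 1.56, 1.31 to 1.81) and Fbln7 (-1.35), Fbln5 (-1.28) and Efemp1 (-1.79) lower. Of 18 other collagens, Col12a1 was higher (1.25) and Col5a3 (-2.30) and Col15a1 (-1.69) lower among the 16 compared. Among 13 matricellular proteins compared of 19, Thbs1 and Sparc (1.07, with 498 of 1186 TNF+ UMIs in 1 cell and 0.36 without it) were higher, and Sparcl1 (-1.46) and Ccn3 (-1.22) lower.

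Of 22 matrix proteases and inhibitors, 16 were compared. Timp1 was higher (36.5 to 167 CPM, 2.20, 1.64 to 2.74), and Adamts12 (-2.21), Adamts4 (-1.44), Mmp3 (-3.89, -9.20 to -1.38) and Mmp19 (-1.78, -4.86 to 0.15) were lower, Mmp3 with 112 UMIs and 1, Mmp19 with 52 and 2. In the Cxcl14 Smoc2 class Mmp3 was higher, at 3.30, Mmp19 at 1.60 and Timp1 at 6.74. Of the 14 genes of calcification and its inhibitors, only Mgp, Ank and Enpp1 were abundant enough, and none was past 2-fold.

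Of 32 transcription factors of limb mesenchyme, 20 were compared, with 6 lower and 3 higher, beside 11.3% and 4.92% of all genes. Lower were Hic1 (-2.17, -5.24 to -0.26, 68 UMIs and 2), Meox2 (-1.87, -3.01 to -0.92), Ebf2 (-1.40, -1.95 to -0.89), Meox1, Osr2 (-1.04) and Egr1. Higher were Pitx1 (2.66, with 17 of 20 TNF+ UMIs in 1 cell), the tendon factor Mkx (1.39) and Twist2 (1.02), none of them past 2-fold without its richest cell (0.11, 0.84 and 0.71). Of 15 sublining and progenitor genes, all compared, S100a4 was higher (439 to 1121 CPM, 1.35, 1.16 to 1.54) and Fap (-1.08), Col15a1 and Cd248 (-1.39) lower. Gsn (gelsolin) was the most abundant gene among them, at 14157 CPM and 7335, a log2 ratio of -0.95. Of 14 lining and hyaluronan genes, 7 were compared, with Hbegf higher and Has2 lower (-1.22, -3.54 to 0.40). Prg4, which encodes lubricin, stood at 834 CPM and 1343, a log2 ratio of 0.69 (0.52 to 0.85).

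Lipid, hypoxia and signalling genes added a few more. Of 19 lipid and sterol genes, 11 were compared, with the cholesterol exporter Abca1 higher (1.12, 0.87 without its richest cell). Among those lower were Ptgs2 (-1.19, -1.87 to -0.59), Lpl (-1.08) and Plin2 (-2.66, -8.00 to -0.12, 48 UMIs and 1). In the chosen cells without tendon markers Ptgs2 went from 270 CPM to 138 and Lpl from 380 to 276. In those with them Ptgs2 went from 83.1 CPM to 44.0, and Lpl from 83.1 to 6.29 on 1 TNF+ UMI. Of 15 hypoxia and glycolysis genes, 12 were compared, with Hk2 (1.17), Hif1a (1.26) and Ndrg1 (1.48) higher and none lower. Without the richest cell these were 0.88, 0.99 and 1.09. Of 25 interferon-stimulated genes, 13 were compared, with Igtp (1.62), Ifit2 (1.51) and Ifit1 (1.07) higher, each on 13 TNF+ UMIs or fewer. Ifit1 was at 0.51 without its richest cell and at -1.86 and -1.71 in the Cxcl14 Smoc2 and Pi16 Dpp4 classes, and Igtp at -1.39 in the latter. Of 21 neurotrophic and axon guidance genes, 10 were compared, with Gfra1 (2.44), Sema3d (1.77) and Sema3b (1.34, 0.68 without its richest cell) higher and Ntf3 (-2.17, -5.24 to -0.26) lower. The opioid list had only Penk and Cpe compared of 11. Cpe was at 1.16, at 0.34 without its richest cell and at -1.95 in the Pi16 Dpp4 class.

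**Figure D5:**
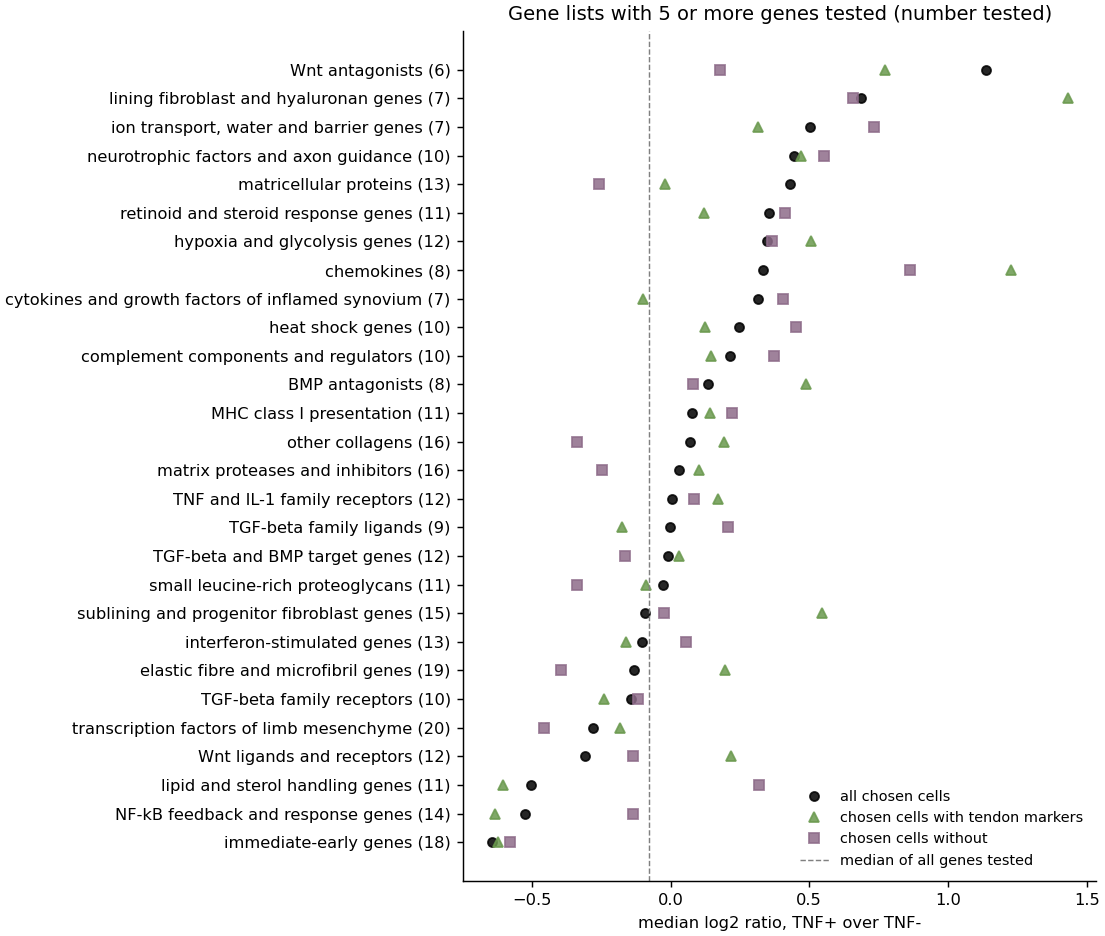
Median log2 ratio of TNF+ over TNF- for each gene list with at least 5 genes compared (number in brackets), in all chosen cells (black), those with tendon markers (green) and those without (purple), with the median of all genes dashed. A gene with 0 UMIs in 1 library enters at its bound of 3 UMIs. Wnt antagonists lie highest and immediate-early genes lowest in all chosen cells, and most lists shift between the 2 kinds of cell.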

How the data were processed

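Droplet-based 3′ single-cell RNA sequencing was done on lung and synovium, 1 library per genotype and tissue, and only the synovium enters the comparisons. Raw UMI counts for each gene in each barcode, without normalization, were deposited by the authors, made with Cell Ranger 7.0.1 on mm10 per the submitters' processing notes. That version counts intronic reads by default. Deposited barcodes numbered 6899 (TNF-) and 4246 (TNF+) in the synovium. No deposited file used here assigns cells to types.

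Barcodes with 500 or more UMIs and 20% or less mitochondrial UMIs were kept, with no upper gene limit, and the rule for the chosen cells was applied to raw counts. The study itself kept 200 to 5000 genes. Doublets were kept. An alternative dropped the barcodes that Scrublet ranked highest (353 and 98, of which 7 and 1 chosen cells), as its automatic threshold called 117 and 6. Of the chosen cells, 1 TNF- cell had over 5000 genes. The synovium libraries share 5 barcodes, none of them a chosen cell in both.

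Counts were summed over cells per library, and CPM and log2 ratios were given with exact Poisson or conditional binomial 95% intervals. They cover counting error only. Shares have exact binomial intervals, and differences of shares Newcombe intervals. A count of 0 was set to a bound of 3 UMIs. The members, markers and 34 gene lists were chosen with earlier results of these data known. Named genes were, for TNF+ against TNF-, the 12 in each direction past 2-fold that ranked first by the interval bound nearest 0, for the chosen against other gate cells the 12 highest and 6 lowest by the smaller bound of both libraries, the 6 markers, and of each list the up to 4 most abundant and those past 2-fold. Genes of the rule, mitochondrial, ribosomal and unnamed genes were left out, and a few genes that the rule names are not reported here. Neighbours (20) and Leiden clusters (resolution 0.6) used 30 principal components of 2000 variable genes without the genes of the rule, in each library by itself (scanpy 1.11.5, leidenalg 0.10.2, numpy 2.4.6, scipy 1.17.1). The ratio code was tested on simulated data. Gene positions are from GENCODE vM21 on GRCm38. Promoters are from RefSeq, GRCm38.p6. All 4 samples were grouped by the labels, and 0 columns of values were left unused.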

Additional observations from a re-analysis of the deposited data

Results flagged for a closer look

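The lung libraries were not part of the comparisons. Of 8342 kept barcodes in the TNF- lung, 343 passed the fibroblast gate and 8 met the rule for the chosen cells, above the 3 that a count of 0 allows. All 8 met it through Gdf10 (36 UMIs) with 0 Myoc UMIs. In the TNF+ lung 35 of 11085 kept barcodes passed the gate and 1 met the rule, with 13 Gdf10 UMIs and 0 of Myoc.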

How the results depend on the processing

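No paired analysis was possible because there was 1 library per group. Leaving out a library was likewise not possible. The share of chosen cells in the gate became 13.2% (TNF-) and 7.34% (TNF+) after thinning to 5000 UMIs and 3.27% in TNF+ with a minimum of 5 UMIs of Gdf10 and Myoc. Counts of genes past 2-fold (304 higher, 700 lower) became 616 and 1290 with 2 or more expected UMIs, and 80 and 133 with 20 or more, where 2029 genes were tested. Median-of-ratios scaling took a shift of -0.07 out of every log2 ratio, so all ratios rose and the median became -0.01. It gave 36.6% of the past-2-fold genes as higher, against 30.3%. Inhba turned to -0.49 with the minimum of 5 UMIs, and Cpe to -0.87 without the 10% of cells richest in markers of other cell types.

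Other alternatives were chosen after seeing the data. Without each gene's richest cell, 125 genes were higher and 1354 lower (8.45% higher), the median fell to -0.37, and Myh11 (-0.40), Terf2ip (-0.40), Inhba (-0.20), Sfrp4 (-1.70) and Slc1a3 (-0.079) changed sign, while Myl1 (0.26) was a bound with 0 TNF+ UMIs. The library totals stayed as they were in this setting, which takes a larger part of the TNF+ cells than of the TNF- cells and so favours lower ratios. In the cells without tendon markers alone, 217 of 3354 genes were higher (6.47%) and 377 lower (11.2%), and Sfrp4 (-0.99) and Sparc (-0.25) changed sign. The Wnt antagonist median there was -0.99 over the 3 genes still abundant enough and 0.18 over the 5 with a ratio. Without the mural, Schwann and muscle marker cells Cpe was -1.02. The causes were not tested. Over all settings, 988 of 1133 ratios of named genes stayed within their counting intervals. This total includes the settings of 2 and 20 expected UMIs, whose 110 and 58 ratios are unchanged by construction. In the cells with tendon markers alone, 44 ratios stayed and 31 moved. In those without, 46 stayed, 20 moved and 2 reversed, and without each gene's richest cell 70 stayed, 33 moved and 6 reversed. Of shares and counts, 30 of 40 stayed within their interval or within 1.5 times the value reported. The TNF+ side holds 274853 UMIs from 29 cells.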

Other observations

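Further gene lists of the chosen cells were compared between TNF+ and TNF-, where 4.92% of all genes were past 2-fold higher and 11.3% lower, so 0 or 1 gene in a list of this length is near the background. All 10 heat shock genes and 11 of 16 MHC class I genes were compared, with medians of 0.25 and 0.08, and none was past 2-fold. Of the receptors of TNF, IL-1 and other cytokines, 12 of 17 were compared, with a median of 0.01. The IL-6 receptor gene Il6ra (1.21, 0.85 without its richest cell) was past 2-fold. Of 18 retinoid and steroid response genes, 11 were compared, with Per1 (1.11, 0.74 without its richest cell and -1.09 in the Pi16 Dpp4 class) past 2-fold and the metallothionein Mt1 at 0.95 (0.88 to 1.02), from 3957 CPM to 7659. Of 14 genes of ion transport and barriers, 7 were compared, with Slc6a6 (1.28) and Slc1a3 (1.20) higher, at 0.94 and -0.08 without the richest cell. Among acute-phase genes 3 of 11 were compared, and Ptx3 was lower (-2.50), with 89 of its 214 TNF- UMIs in 1 cell, and at 2.03 in the Cxcl14 Smoc2 class. Limb Hox genes had 3 of 15 compared, with Hoxc10 (-1.27) and Hoxc6 (-1.17, -3.49 to 0.46) lower. Of 7 MHC class II genes only Cd74 was compared (-1.22, -3.54 to 0.40), and of 16 cell cycle genes only Pcna (0.19).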
